A study of Mus musculus with 2 samples.

Results

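The genes described here encode 10 Polycomb group proteins known to silence the INK4 locus, in primary and in self-renewing macrophages from mouse bone marrow. They were chosen by name, as Ezh1, Ezh2, Eed, Suz12, Bmi1, Cbx2, Cbx7, Cbx8, Ring1 and Rnf2, and their probes were found through the transcript accessions on the arrays. This gave 18 probes for 10 genes, out of 56598 probes compared and 22910 genes named. RNA of each cell type was hybridised to 1 Agilent mouse expression array with the dye Cy3. Both cultures came from C57BL/6 mice labelled male, with no mutation or transgene named, and both were grown with 100 ng/ml recombinant human M-CSF, the cytokine that drives macrophage development. The primary macrophages were taken at day 5. The self-renewing macrophages were taken after passage 4, at which colonies grow out of a culture that has otherwise stopped dividing. They are a mixed culture, and the labels name no clone.

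Polycomb proteins keep genes silent through chromatin and act in large complexes. Polycomb repressive complex 2 (PRC2) places methyl groups on a lysine of histone H3 through Ezh1 or Ezh2. Polycomb repressive complex 1 (PRC1) attaches ubiquitin to histone H2A through Ring1 or Rnf2, and in its canonical form it is brought to the methylated histone by a CBX protein. The INK4 locus holds Cdkn2a and Cdkn2b, which encode inhibitors that stop the cell cycle. Loss of Bmi1, Cbx7 or Ezh2 is known to release this locus in cultured cells, and Polycomb control of it is one of the classical models of how cells in culture keep dividing or stop.

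Each value below is a log2 signal relative to the 75th percentile of the gene probes on the same array, an intensity of 434 for primary and 446 for self-renewing macrophages. A difference is the log2 signal in self-renewing macrophages minus that in primary macrophages, so that 1 log2 stands for 2-fold. The brightest probe stands for a gene. With 1 array per cell type there was no spread between replicates, and no test was made. Errors are therefore technical. The scanner software gave an error estimate for each spot, which came to a median of 0.20 log2 for a difference, and probes of the same gene differed from each other by a root mean square SD of 0.33 log2 over 5077 genes. No gene spot was saturated (0 on each array).

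Both cultures carried the RNA of macrophages. All 8 genes of a macrophage marker list were well above background on both arrays, and Csf1r, which encodes the M-CSF receptor, stood at 8.04 and 8.42 log2. Neutrophil markers differed most, as 9 of 9 detected genes had a lower signal in self-renewing macrophages, at a median of -5.27 log2 with 4 of them bounds, and 4 of 4 detected markers of blood progenitors were lower as well, 2 of them bounds. A bound is taken where a probe was well above background on 1 array only, against the dimmest signal well above background on the other. The labels were not met in 1 respect. Both samples are labelled male, but of 6 Y-linked genes 4 were detected in self-renewing macrophages and 0 in primary macrophages, in which Xist, the RNA of the inactive X chromosome, was detected instead. With 1 array per cell type, this contrast and that of cell type cannot be told apart. All 10 Polycomb genes lie on autosomes.

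A few promoter stretches are shown first, those of a pair of PRC2 genes that were lower in the self-renewing macrophages, Ezh2 and Suz12, and of the PRC1 genes with the highest differences, Rnf2 and Cbx7. They are from a table of RefSeq promoters, build GRCm38.p6, in which 9 of the 10 genes were matched. That of Cbx2 was not analysed here. Positions count in bases from the annotated start of transcription. Capitals mark matches on either strand to CCAAT, to GGGCGG or to an E2F-type octamer, given by TTTCCCGC, TTTGGCGC, TTTCGCGC and TTTGCCGC.
Ezh2, -100 to 12, chr6:47595019-47595130, minus strand: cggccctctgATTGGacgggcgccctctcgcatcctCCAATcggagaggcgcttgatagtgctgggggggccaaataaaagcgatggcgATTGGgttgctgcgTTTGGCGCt
Suz12, -220 to -26, chr11:79992886-79993080, plus strand: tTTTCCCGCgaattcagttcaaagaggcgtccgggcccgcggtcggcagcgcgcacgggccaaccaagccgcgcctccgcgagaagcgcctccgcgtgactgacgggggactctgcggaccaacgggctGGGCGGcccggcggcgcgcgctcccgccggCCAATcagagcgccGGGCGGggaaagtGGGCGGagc
Rnf2, -100 to -1, chr1:151500992-151501091, minus strand: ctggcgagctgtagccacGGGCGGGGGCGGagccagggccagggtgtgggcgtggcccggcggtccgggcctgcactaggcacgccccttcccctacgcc
Cbx7, -150 to -1, chr15:79932647-79932796, minus strand: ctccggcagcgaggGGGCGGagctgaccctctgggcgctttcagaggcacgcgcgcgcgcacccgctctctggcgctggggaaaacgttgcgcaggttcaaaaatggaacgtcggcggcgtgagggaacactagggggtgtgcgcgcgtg

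An E2F-type octamer was present in 2 of the 9 promoters, those of Ezh2 and Suz12, and in 2.26% of all 32851 promoters of the same length. CCAAT was present in 5 of the 9 and in 37.4% of all promoters, with 3 matches in Ezh2. Cbx7 has a CCAAT match too, at -190 to -186, which lies outside the stretch shown. GGGCGG was present in 6 of the 9 and in 35.7% of all promoters, and was absent from the Ezh2 promoter. These were 3 of 10 motifs searched, chosen after the matches were seen. A match is a description of the letters and not a binding site. The 9 promoters held between 17 and 41 CpG dinucleotides in 300 bases, against a median of 7 over all promoters. The E2F-type octamers and GGGCGG themselves contain CG, so the shares over all promoters are not a base matched for CpG.

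All 18 Polycomb probes were well above background on both arrays, so that every gene had a measured difference. In self-renewing macrophages Rnf2 and Cbx7 were higher by 2-fold or more, and Cbx2 was lower by 2-fold or more. The other 7 genes differed by less than 2-fold. Ezh2 and Suz12 were lower by 0.72 and 0.29 log2, Ezh1, Eed, Bmi1 and Ring1 were higher by 0.24 to 0.50 log2, and Cbx8 differed by -0.11 log2, less than its scanner error of 0.21 log2. In a bulk culture, fewer cells that express a gene and less RNA per cell cannot be told apart.

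Of the 10 genes, 2 were higher by at least 2-fold, as were 4.76% of the 15516 named genes detected on either array, and 1 was lower by at least 2-fold, as were 8.38%. With so few genes, these counts are a description. Counts past 2-fold in the lists below are to be read beside the same 4.76% and 8.38%. The median difference was 0.29 log2, with 6 genes above 0 and 4 below, and the median of all named genes was -0.02 log2. The 6 PRC1 genes ranged from -1.03 to 1.64 log2 and the 4 PRC2 genes from -0.72 to 0.35 log2. A range over more genes tends to be wider, and the low end for PRC1 rests on 1 dim probe, that of Cbx2.

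**Figure D1:**
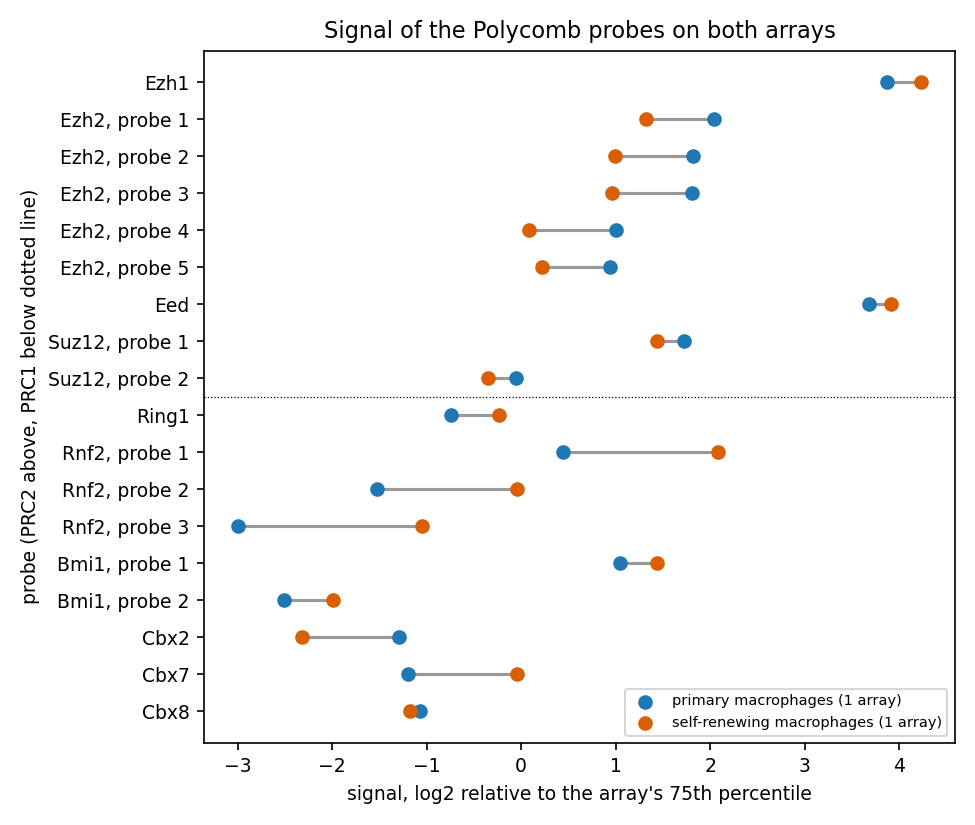
Signal of each of the 18 Polycomb probes on the 2 arrays, in log2 relative to the array's 75th percentile on the x axis, with blue points for primary and orange points for self-renewing macrophages and a line joining the arrays. The 5 Ezh2 probes all lie lower in the self-renewing macrophages and the 3 Rnf2 probes all lie higher.

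Among the catalytic subunits of PRC2, Ezh2 was measured by 5 probes. Its brightest probe stood at 2.04 log2 in primary and 1.32 log2 in self-renewing macrophages, and its dimmest at 0.94 and 0.23 log2. All 5 probes were lower in the self-renewing macrophages, from -0.92 to -0.72 log2, with a mean of -0.80 log2 and an SD of 0.09 between probes. This SD is well below the 0.33 log2 seen between probes of a gene in general. The brightest probe corresponds to a signal 1.65-fold lower. Ezh2 is the enzyme of dividing cells and is known as a target of E2F factors.

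Ezh1, its close relative, known for its expression in resting cells, was measured by 1 probe. It stood at 3.88 log2 in primary and 4.23 log2 in self-renewing macrophages, a difference of 0.35 log2 with a scanner error of 0.20. The paralogs thus went in opposite directions. The difference of Ezh1 less that of Ezh2, which no scaling by 1 constant per array can change, was 1.07 log2 with a scanner error of 0.29, and it lay between 1.07 and 1.27 log2 over the probes of Ezh2. The ratio of Ezh1 to Ezh2 signal was therefore 2.10-fold that of primary macrophages. The scanner error covers the reading of the spots only.

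The other core subunits of PRC2 differed less. Eed, which binds the methylated histone tail and stimulates the enzyme, stood at 3.68 and 3.91 log2 in primary and self-renewing macrophages, a difference of 0.24 log2, close to its scanner error of 0.20. Suz12, which holds the complex together, was read by 2 probes. They stood at 1.73 and -0.05 log2 in primary and at 1.44 and -0.35 log2 in self-renewing macrophages. Both gave a lower signal, by -0.29 and -0.30 log2, in the direction of Ezh2 but by a smaller amount. These values are below the SD of 0.33 log2 between probes of a gene.

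Ring1 and Rnf2 are alternative ubiquitin ligases of PRC1, and both were higher in the self-renewing macrophages. Rnf2 had the highest difference of the 10 genes. Its 3 probes stood at 0.44, -1.53 and -2.99 log2 in primary macrophages and at 2.09, -0.04 and -1.05 log2 in self-renewing macrophages. The probes gave differences of 1.64, 1.48 and 1.94 log2, with a mean of 1.69 and an SD of 0.23, and the brightest corresponds to a 3.12-fold higher signal, at 8.05 times its scanner error. Of all 15516 named genes, 331 (2.13%) had a difference at least as high as that of Rnf2. Ring1 was read by 1 probe, at -0.74 log2 in primary and -0.24 log2 in self-renewing macrophages, a difference of 0.50 log2 or 1.41-fold. The difference of Rnf2 exceeded that of Ring1 by 1.14 log2, with a scanner error of 0.29, and by 0.99 to 1.45 log2 over the Rnf2 probes.

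Genes on one side of Rnf2 on chromosome 1 were also higher. Taken in gene order, the 5 nearest measured genes on the side of lower coordinates, Trmt1l, Swt1, Ivns1abp, Tpr and Odr4, were all higher in the self-renewing macrophages, by 0.78 to 1.22 log2. On the other side, the 5 nearest genes ranged from -3.10 to 0.07 log2, beginning with Niban1 at -1.50 log2. Over 15 genes on each side, 12 were above 0 on the first side, with a median of 1.05 log2, and 5 on the second, with a median of -0.12 log2. The 2 highest differences among all these genes lay on the second side, with Npl at 4.20 log2 and Rgs16 at 3.82 log2, at 11 and 12 genes from Rnf2. The part of the neighbourhood in the Rnf2 signal was not tested. Over the 10 nearest measured genes of both sides together, the median for Rnf2 was 0.43 log2, with 3 higher and 3 lower by at least 2-fold. For the other 9 genes, the same median lay between -0.04 and 0.23 log2. The sides were taken apart for Rnf2 only.

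**Figure D2:**
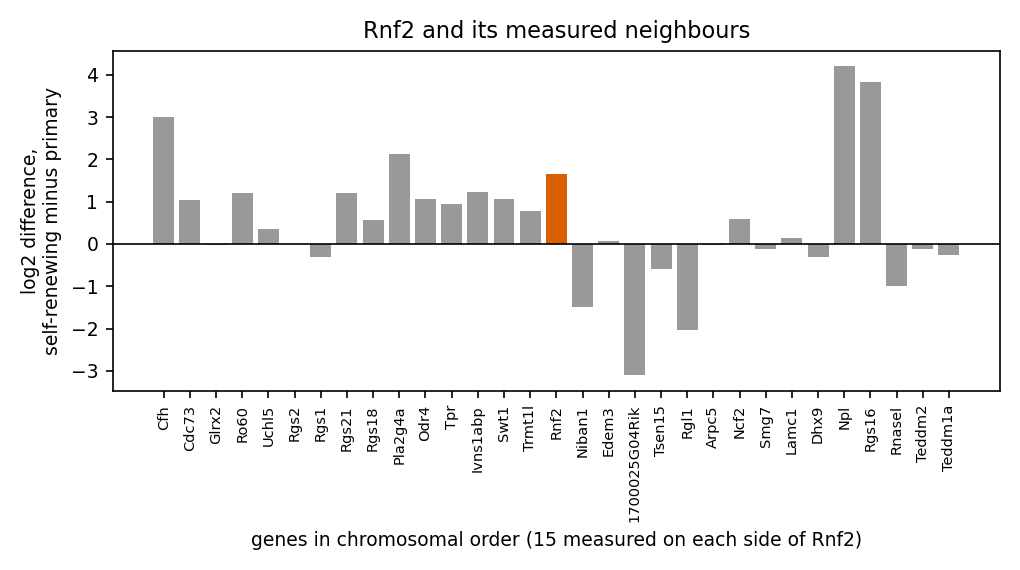
Log2 difference between self-renewing and primary macrophages (y axis, bars) for Rnf2, in orange, and the 15 measured genes on each side of it in chromosomal order (x axis, not to distance). The 5 genes next to Rnf2 on its left lie between 0.78 and 1.22 log2, and the bar on its right, Niban1, is at -1.50 log2.

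Bmi1, the PCGF subunit of canonical PRC1 and the best known repressor of the INK4 locus, was higher by both of its probes. They stood at 1.05 and -2.50 log2 in primary and at 1.44 and -1.99 log2 in self-renewing macrophages. The differences were 0.39 and 0.51 log2, or 1.31-fold for the brighter probe, at 1.92 times its scanner error. The other PCGF subunits, of which Pcgf2 is the close relative of Bmi1 and Pcgf1, Pcgf3, Pcgf5 and Pcgf6 belong to variant complexes, are given from a fixed list. Pcgf5 was the lowest of them at -0.71 log2, with a second probe at -0.51 log2, and Pcgf6 was at -0.41 log2. Pcgf1, Pcgf2 and Pcgf3 lay at 0.21, 0.07 and -0.06 log2. No PCGF gene differed by 2-fold in either direction (0 of 6). Of all named genes, 4.76% were higher and 8.38% lower by at least 2-fold, so a count over 6 genes says little.

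The CBX proteins read the methyl mark and give canonical PRC1 its address. Here they differed in opposite directions. Cbx7 stood at -1.20 log2 in primary and -0.05 log2 in self-renewing macrophages, 1.15 log2 or 2.22-fold higher, and 578 of all named genes (3.73%) had a difference at least as high. Cbx2 stood at -1.29 log2 in primary and -2.32 log2 in self-renewing macrophages, a difference of -1.03 log2 or 2.05-fold lower. Each was read by 1 probe, with a scanner error of 0.21 log2. Cbx8, at -1.07 and -1.17 log2, hardly differed between the arrays.

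The difference of Cbx7 less that of Cbx2 was 2.18 log2 with a scanner error of 0.29, so that the ratio of their signals was 4.54-fold that of primary macrophages. Cbx6, another CBX gene of PRC1, was at 0.24 log2 by its brighter probe and at 0.15 log2 by a second. Cbx2 and Cbx8 lie beside each other on chromosome 11 and gave differences of -1.03 and -0.11 log2. Of the 4 CBX genes described, 1 passed 2-fold upwards and 1 downwards. The 2-fold limit lies close to Cbx2. Its difference was -0.74 log2 with a model-based background correction and -0.85 log2 with the authors' own scaling.

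**Figure D3:**
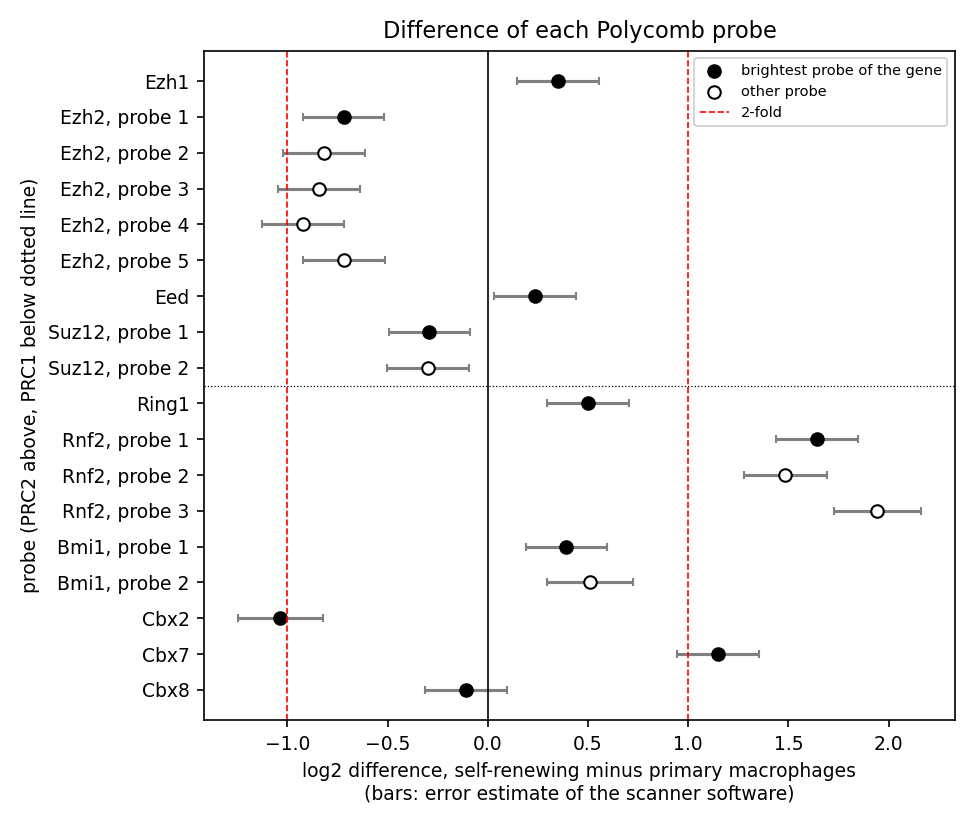
Log2 difference between self-renewing and primary macrophages (x axis) for each of the 18 probes, with bars for the error estimate of the scanner software and dashed lines at 2-fold. All 3 Rnf2 probes and the Cbx7 probe lie beyond 2-fold on the right, and the Cbx2 probe lies at -1.03 log2 on the left.

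From lists of the other PRC1 and PRC2 genes, 29 genes were described and all 29 were well above background on both. Of these, 0 were higher by 2-fold and 2 were lower by 2-fold, beside 4.76% and 8.38% of all named genes. The median of the 29 was -0.21 log2. The 2 lower genes were Scmh1 and Scml2, which encode relatives of the Drosophila protein Sex comb on midleg. Scmh1 stood at -0.43 log2 in primary and -1.73 log2 in self-renewing macrophages, -1.30 log2, and a further 2 of its 4 probes gave -1.13 and -1.42 log2, while the dimmest gave 0.21 log2. Scml2, which lies on the X chromosome, stood at -3.01 and -4.43 log2, a difference of -1.42 log2, and a second probe, detected in primary macrophages only, gave a signal at least 8.24-fold lower. The Polyhomeotic genes Phc1, Phc2 and Phc3 were at 0.74, 0.02 and 0.29 log2. None of 9 genes of variant PRC1 differed by 2-fold (0 higher, 0 lower), and these ranged from -0.78 to 0.43 log2.

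The accessory subunits of PRC2 had a median of -0.39 log2, with 6 of 9 genes below 0 and 0 past 2-fold by their brightest probes. Jarid2, which guides PRC2 to its targets, was lowest at -0.83 log2. Its second probe stood at -1.72 log2 in primary and -3.54 log2 in self-renewing macrophages and gave -1.82 log2. The histone-binding subunits Rbbp4 and Rbbp7, the latter on the X chromosome, were at -0.39 and -0.64 log2. Among the Polycomb-like proteins that bind PRC2, Phf19 and Mtf2 were lower, at -0.75 and -0.49 log2, and Phf1 was higher at 0.67 log2. Aebp2, Lcor and Epop lay at 0.37, 0.16 and -0.11 log2.

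Genes that oppose Polycomb were described from a further list. The 13 detected include the histone demethylases Kdm6a and Kdm6b, the deubiquitinase Bap1 and the methyltransferases Kmt2c and Kmt2d. By their brightest probes, 0 of 13 differed by 2-fold, beside 4.76% higher and 8.38% lower among all named genes. The 13 ranged from -0.53 to 0.38 log2 with a median of 0.13 log2. The lowest was Kdm6a, an X-linked gene known to escape X inactivation, which stood at -0.68 log2 in primary and -1.21 log2 in self-renewing macrophages. The part of sex in the Kdm6a signal was not tested. Kdm6b, which removes the methyl mark that PRC2 places, was at 0.14 log2.

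**Figure D4:**
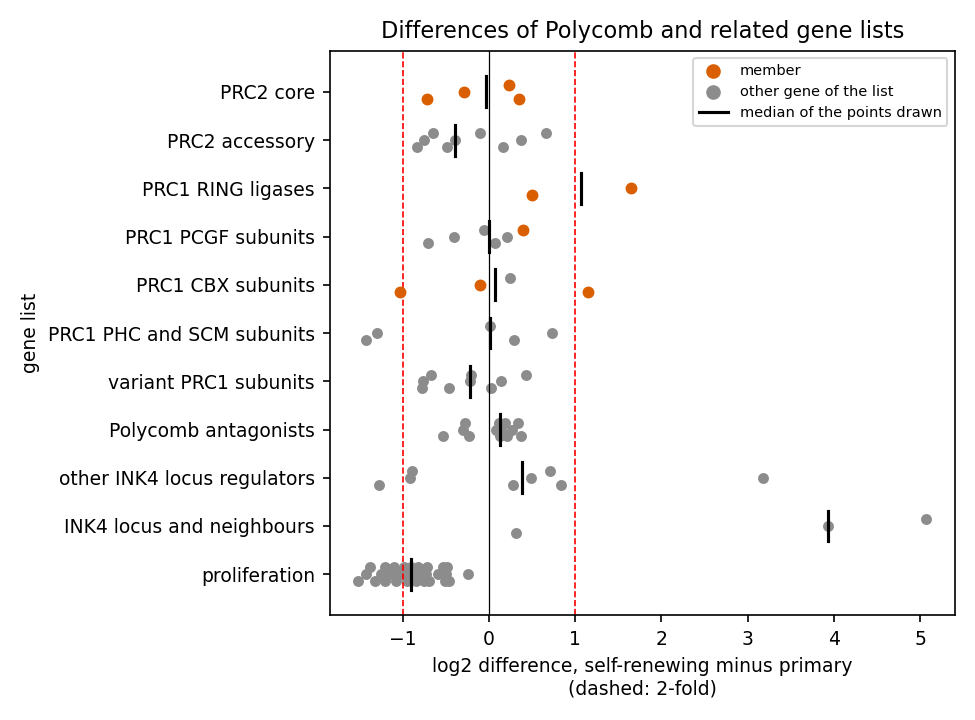
Log2 difference between self-renewing and primary macrophages (x axis) for the genes measured on both arrays, by gene list (y axis), with Polycomb members of the INK4 set in orange and a black line at the median of the points. All 29 proliferation genes lie below 0, Cdkn2a and Cdkn2b lie at 3.94 and 5.07 log2, and most Polycomb genes lie between the dashed lines at 2-fold.

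Ezh2 is often read as a gene of dividing cells, and a list of 29 proliferation genes was set beside it. All 29 had a lower signal in self-renewing macrophages. Their median was -0.91 log2, and 11 were lower by at least 2-fold. Pcna and Rrm2, which serve DNA synthesis, were lowest at -1.52 and -1.43 log2, and Cdc20 was nearest to 0 at -0.25 log2. The 5 Ezh2 probes, from -0.92 to -0.72 log2, lay inside this range, and E2f1, at -0.90 log2, did too. The range is wide, and it also held Cbx2 and Suz12, at -1.03 and -0.29 log2. Of all named genes, 27.4% had a difference at least as low as that of Suz12. An E2F-type octamer was present in the promoters of 7 of 23 proliferation genes (30.4%). CCAAT was present in 18 of 23 (78.3%), and so was GGGCGG, which the Ezh2 promoter lacks. The summed signal of the proliferation genes was 9.42 log2 in primary and 8.46 log2 in self-renewing macrophages. That of the 9 neutrophil markers was 6.92 and 2.71 log2. Elane, at 3.05 and 2.58 log2, made up most of what remained of it, since the next highest, Mpo, stood at -1.96 log2 in self-renewing macrophages. The 4 progenitor markers summed to -1.17 and -3.32 log2. The 4 detected B cell markers summed to 0.95 and -1.80 log2, and 2 of them were lower by at least 2-fold, with Cd79b at least 54.4-fold lower, while Pax5 and Cd79a were at -0.03 and 0.41 log2. The part of any of these in the Ezh2 and Cbx2 signals was not tested.

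At the INK4 locus itself, the brightest probes of Cdkn2b and Cdkn2a were 33.6-fold and 15.3-fold higher in the self-renewing macrophages. The neighbouring gene Mtap was at 0.31 log2, and Dmrta1, on the other side, was not well above background on either array. Among 9 detected genes of a list of other regulators of the locus, 1 was higher and 1 lower by at least 2-fold. Id1, which encodes an inhibitor of the ETS factors that activate the locus, stood at -1.35 log2 in primary and 1.83 log2 in self-renewing macrophages, 3.18 log2 higher. Ets1, which encodes such an activator, was lower by its 2 probes, at -1.28 and -2.26 log2, and Ets2, which encodes another, was at 0.84 log2.

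Other ways of processing the arrays left 9 of the 10 Polycomb genes with the same direction. Rnf2 remained at least 2-fold higher under all 8 alternatives, between 1.53 and 1.83 log2, and Cbx7 under 7 of them, from 0.95 to 1.34 log2. Not all of these could alter a value. The settings that change only the background filter could not, as all 18 probes were well above background on both arrays. Averaging of probes could not alter a gene read by 1 probe, such as Cbx7. Ezh2 ranged from -0.80 to -0.53 log2 and Cbx2 from -1.05 to -0.74 log2. Cbx8 was the gene whose sign changed, at 0.08 log2 with the authors' scaling.

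**Figure D5:**
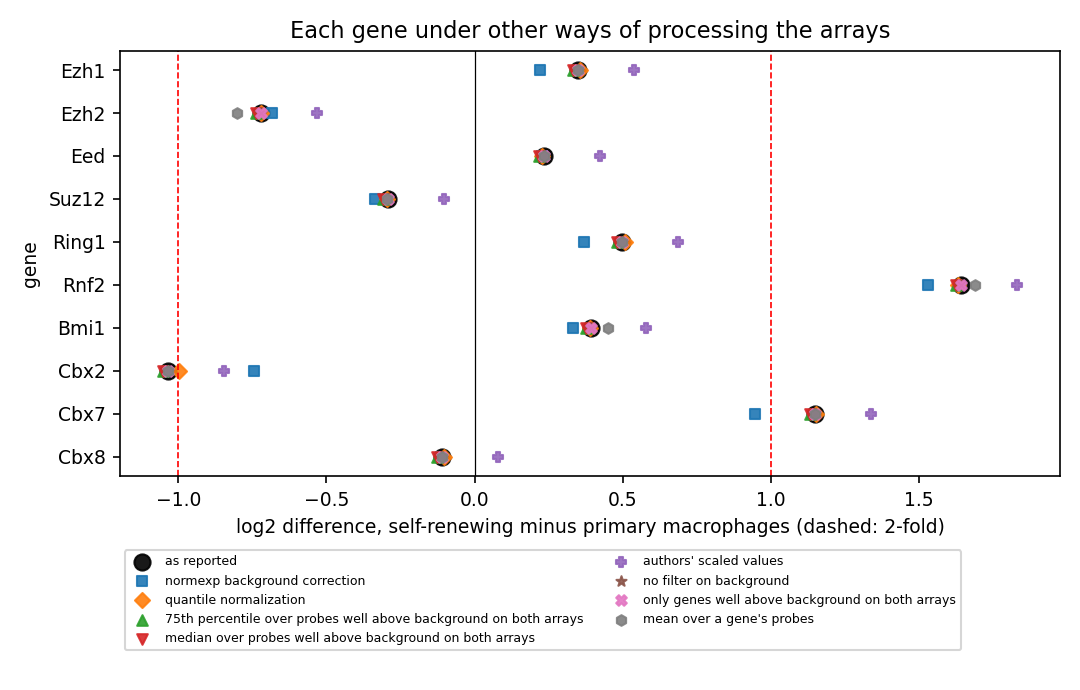
Log2 difference between self-renewing and primary macrophages (x axis) of each gene (y axis) as reported, in large black points, and under 8 other ways of processing the arrays, with dashed lines at 2-fold. The authors' scaled values lie to the right of the reported values for every gene, and Cbx8 crosses 0 with them.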

How the data were processed

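The authors deposited 1 scanner file per array, written by Feature Extraction 11.5.1.1. Its intensity values were corrected for background and for spatial trend within an array, without scaling between arrays. Further columns flag, per the file headers, outlier and saturated spots and those well above background. The authors also deposited scaled intensity values, which equalled the corrected intensity times 1.07 (primary macrophages) and 1.19 (self-renewing macrophages). How these constants were set is not given in the sources used here. Gene spots with an outlier flag, 112 on either array, were left out, spots of a probe were averaged, and log2 was taken relative to each array's 75th percentile. Accessions were matched to names in a RefSeq table of GRCm38.p6, which named 58.3% of the probes. The array design was built on mm9, so no probe coordinates are given.

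For each gene, the probe of highest mean log2 signal was used, out of those well above background on 1 array or both. Where this held on 1 array only, the difference was taken as a bound against the lowest signal well above background on the other. No test was made, the number of arrays limits the precision, and 2-fold was a limit of size. The alternatives were normexp with an offset of 50 on the median spot and background signals, quantile normalization, the authors' scaled values, scaling by the median or the 75th percentile of probes detected on both arrays, a filter for detection on both arrays, no such filter, and averaging the probes of a gene. The steps were tested on simulated data. The 10 genes and the lists were chosen with earlier results of these data known. All members with their probes are named, and so are the PRC2 accessory, PCGF and CBX genes, of which 1 is not reported here and was left out of the lists, list genes past 2-fold, and the 2 largest differences each way of the other lists. Genes named beyond this were chosen after their values were seen. Versions were R 4.3.3, limma 3.58.1, Python 3.11.15, pandas 2.3.3, numpy 2.4.6 and matplotlib 3.10.9.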

Additional observations from a re-analysis of the deposited data

How the results depend on the processing

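No paired analysis was possible because the design holds a single array of each culture. A single value or a list's median was taken to have moved when it changed by more than 0.33 log2, the SD between probes of a gene. With the normexp correction, which adds an offset and so draws dim genes together, 1 of the 10 Polycomb genes was higher and 0 were lower by at least 2-fold, the difference of Cbx7 less that of Cbx2 was 1.69 log2, the median of the INK4 locus list was 3.61 log2, and 429 of all named genes passed 2-fold upwards and 750 downwards. With quantile normalization and with the authors' scaled values, 0 Polycomb genes were at least 2-fold lower. The authors' values raise the median difference by 0.19 log2, and 49.2% of genes past 2-fold were then higher, against 36.2% as reported. Without a filter on background, 1192 genes passed 2-fold upwards and 2336 downwards, over 22910 genes in place of 15516, and the medians of the INK4 locus list and of its other regulators were 2.12 and -0.30 log2. With the filter set to detection on both arrays, 782 were lower. The comparisons of Ezh1 with Ezh2, Rnf2 with Ring1 and Cbx7 with Cbx2, and their alternatives, were chosen after seeing the data. Of 431 values of 54 other Polycomb and INK4 genes, 421 moved by less than that SD, 10 by more, and 0 of at least 2-fold changed sign. The 421 include values that could not move. A change of filter leaves a gene as it was where its brightest probe was well above background on both arrays.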

Other observations

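A list of 36 genes known as targets of Polycomb silencing, mostly of the HOX clusters and of developmental transcription factors, was looked at beside the Polycomb genes. Of these, 12 were well above background, each of them on both arrays, and 24 on neither. By at least 2-fold, 0 of them were higher in self-renewing macrophages and 2 were lower, with a median of -0.21 log2 over the 12. The lower ones were Hoxb4, which stood at -0.34 log2 in primary and -2.20 log2 in self-renewing macrophages, and Hoxa7, at -2.45 and -3.89 log2. The highest were Pax3 and Hoxc8, at 0.62 and 0.45 log2, both dim on either array. Among the marker lists, the 2 highest macrophage markers were Mertk and Lyz2, at 2.23 and 0.76 log2, and the lowest was Fcgr1 at -1.76 log2. S100a9 and S100a8 were the lowest neutrophil markers, both not well above background in self-renewing macrophages, with bounds of -11.0 and -9.64 log2, and the lowest progenitor markers were Cd34 and Sox4 at -2.75 and -1.65 log2.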
